A study of Drosophila melanogaster with 6 samples.

Results

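The vacuolar proton ATPase (V-ATPase) genes of Drosophila melanogaster were taken as the protein-coding genes whose symbol in the dm6 annotation begins with Vha. The rule found 33 of 13946 nuclear protein-coding genes. They encode 13 proteins of the V1 domain, 18 of the Vo domain and 2 accessory proteins, and 28 of them belong to 9 families in which several paralogues carry the same subunit name. ATP6AP2, an accessory subunit formerly named VhaM8.9, does not carry the symbol and was counted beside them.

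Open chromatin was mapped in sorted progenitor cells of the fly midgut, the stem cells (ISC) and enteroblasts (EB), with ATAC-seq, an assay in which Tn5 transposase inserts sequencing adapters into accessible DNA. Of the 6 samples, 3 were H1 RNAi samples, replicates A, B and C, which carried esgts, UAS-GFP and the transgene UAS-H1 RNAi 1, and 3 were control samples, replicates A, B and C, which carried esgts, UAS-GFP alone. The RNAi transgene targets the linker histone H1, and the design asks how accessibility in progenitors compares between H1 RNAi and control flies. All flies were females, 3 days old at the start, held for 2 days at 18 °C, and then given poor food at 29 °C during 4 days of induction. Both groups carried the temperature-sensitive escargot driver and GFP, so the driver, the marker and the temperature shift are shared, and the labels name no RNAi transgene in the controls. The RNAi is driven in escargot-expressing cells, 1 RNAi line is named, and each replicate pooled 70 guts, from which 50000 to 100000 GFP-positive cells were sorted. The knockdown itself could not be checked, since peak lists measure neither the H1 transcript nor the protein. Separately, none of 23 annotated His1 genes, which form a repeated array, had a peak near an end in any sample.

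The V-ATPase is a rotary pump that moves protons out of the cytoplasm into lysosomes, endosomes and secretory vesicles, or across the plasma membrane of epithelial cells. Its V1 domain, in the cytoplasm, hydrolyses ATP, and its Vo domain, in the membrane, carries the protons through a ring of proteolipid subunits. In the fly gut it acidifies the lumen at the copper cells, and at the lysosome it takes part in the signalling of amino acids to TORC1, the kinase complex that controls growth. In flies most subunits are encoded by several paralogues, of which 1 is usually abundant in epithelia such as the Malpighian tubule and the others are used in few tissues, often the testis.

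A gene end was counted as having a peak when at least 1 bp of a peak lay within 500 bp of either annotated end, since the annotation table gives no strand. The locus was the gene plus 2 kb on either side. The rank of a peak is given as its percentile, the percent of peaks in the same sample's list whose −log10 q is at or below its own, because heights depend on the library. The lists held 6564, 9827 and 7261 peaks in H1 RNAi samples A, B and C and 6142, 10872 and 8602 peaks in control samples A, B and C. They covered 3.35, 3.91 and 3.04 Mb in the H1 RNAi samples and 2.75, 6.92 and 5.96 Mb in the control samples. The background read from the lists was 5.26, 4.83 and 8.28 fragments per base in the H1 RNAi samples and 5.04, 20.7 and 10.1 in the control samples. Control samples B and C therefore had wider coverage than every other sample, and what this difference contributes to the results was not tested. Of 13 progenitor markers, between 10 and 12 had a gene-end peak per H1 RNAi sample and 12 in each control sample, with esg, the gene of the driver, positive in all 6, upd1 in none, and Delta and polo each in 1 of 3 H1 RNAi and 3 of 3 control samples. In the wider locus Delta had a peak in all 6 samples, and polo in 1 of 3 H1 RNAi and 3 of 3 control samples. Over all genes, 3.81% had a gene-end peak in 2 or 3 fewer H1 RNAi than control samples. Of 10 enteroendocrine markers, between 0 and 2 had one in H1 RNAi samples and between 0 and 4 in control samples. For visceral muscle these counts were 1 to 3 against 0 to 4 of 9 markers, for enterocytes 4 to 6 against 3 to 6 of 10, and for copper cells 3 in each H1 RNAi sample against 3 to 4 of 4. For Malpighian tubule they were 4 to 5 against 3 to 6 of 9, for fat body 0 to 1 against 0 to 2 of 7, and for hemocytes 0 to 1 against 0 to 2 of 7. Markers with no gene-end peak in any sample were Amy-d, betaTry and Npc2h of enterocytes, Tk, Dh31, AstA, AstC, Mip and CCHa1 of enteroendocrine cells, and up, Mlc2, Mlp84B and sls of muscle. The same held for Uro, CapaR and Irk3 of the Malpighian tubule, Lsp1alpha, Fbp1, Fbp2, Yp1 and Yp2 of the fat body, and He, srp, PPO1 and Pxn of hemocytes, while the hemocyte marker NimC1 had one in 0 of 3 H1 RNAi and 2 of 3 control samples. Of the markers of cells other than progenitors, those with a gene-end peak in all 6 samples were nub, GATAe and Amy-p of enterocytes, lab, dve and Ptx1 of copper cells, and tio, tsh and ct of the Malpighian tubule. Among the markers without a gene-end peak, Uro, srp and Pxn had a locus peak in all 6 samples, and Tk, sls, Irk3 and Yp2 in some. A peak near a gene end does not measure expression, and what cells other than progenitors contribute to the results was not tested.

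A gene-end peak was called in all 6 samples at 8 of the 33 Vha genes (24.2%), against 22.3% of all protein-coding genes. These were Vha68-2, Vha55, Vha26 and Vha13 of the V1 domain and Vha16-1, VhaPPA1-1, VhaAC39-1 and VhaAC39-2 of the Vo domain. A further 13 genes (39.4%) had one in 1 to 5 samples, against 34.5% of all genes. The remaining 12 (36.4%) had none, against 43.2% of all genes. The Vha genes thus spread over these classes much as all genes did. Every one of the 12 genes with no gene-end peak belonged to a family with paralogues, and 8 of the 9 families held at least 1 such member. In 3 of the 9 families, Vha68, Vha16 and VhaPPA1, exactly 1 member was called in all 6 samples, in VhaAC39 both were, and in the other 5 none was.

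**Figure D1:**
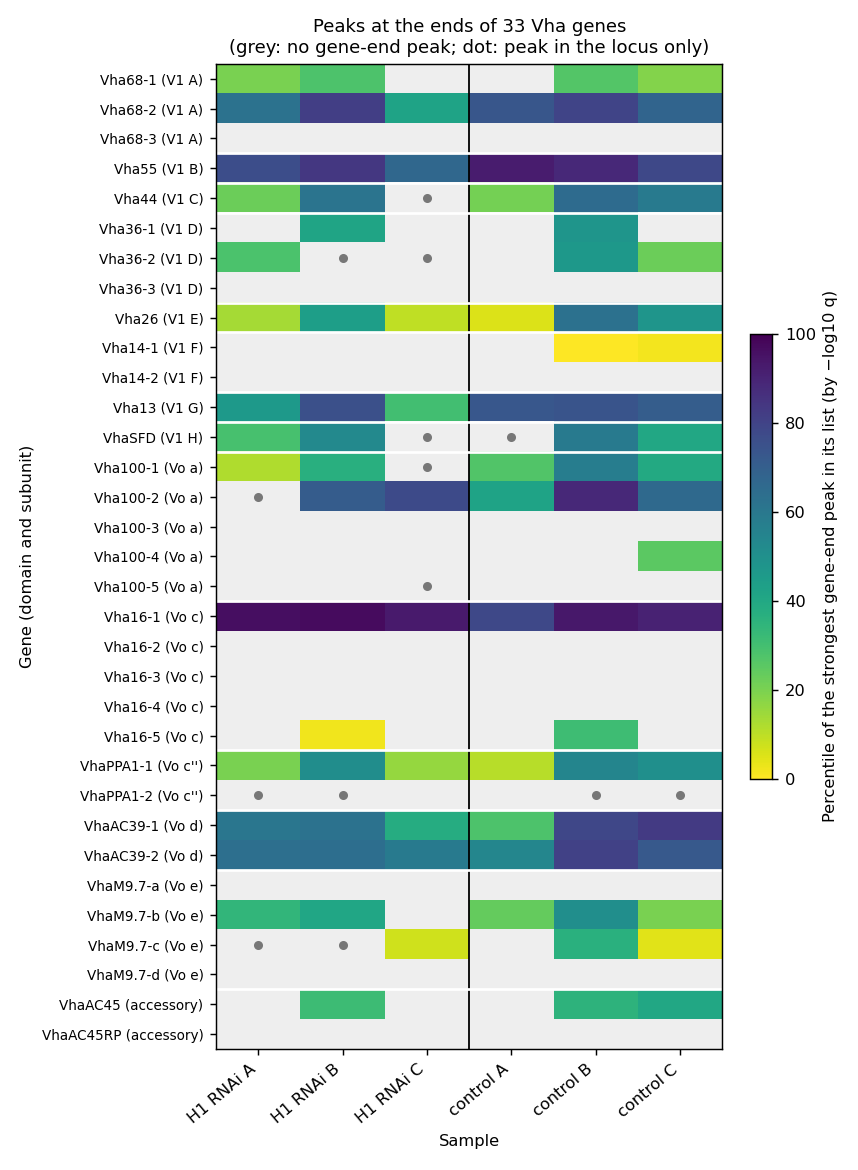
Peaks at the ends of the 33 Vha genes (rows, grouped by subunit) in the 3 H1 RNAi and 3 control samples (columns), coloured by the percentile of the best gene-end peak within its own list. Vha16-1 and Vha55 are in the upper part of all 6 lists, whereas 12 genes are blank throughout.

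The genes that are known as abundant in fly epithelia, which include the 5 single-copy genes, had gene-end peaks more often than the other members, a description with no test. Of the 14 such genes, 10, 13 and 8 had a gene-end peak in H1 RNAi samples A, B and C, and 10, 14 and 13 had one in control samples A, B and C. Of the other 19 Vha genes, 4, 4 and 2 had one in the H1 RNAi samples and 2, 6 and 6 in the control samples. The epithelial set averaged 73.8 ± 18.0% in H1 RNAi samples and 88.1 ± 14.9% in control samples, and the other members 17.5 ± 6.08% in H1 RNAi samples and 24.6 ± 12.2% in control samples (SD, n = 3 each). Within the 9 families with paralogues alone, where the set holds 9 genes, 5, 8 and 5 of the 9 had one in H1 RNAi samples and 6, 9 and 8 in control samples. Over all genes the shares were 37.2 ± 8.03% in H1 RNAi and 42.7 ± 12.5% in control samples. None of the 14 lacked a gene-end peak in every sample, against 12 of the other 19 and 43.2% of all genes. Among the 14, Vha36-1 had only peaks with summits 1 to 22 bp from ends of other genes. Vha14-1 had only peaks at percentiles 0.2 and 1.6. When a peak counted only for the gene with the nearest end, Vha36-1 had none. The genes of the epithelial set were also longer, with a median gene length of 2907 bp against 1371 bp for the others, and what length contributes to the difference was not tested. The set was written from general knowledge after the files had been opened and with earlier results of these data known, so it is not independent of them.

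Among the V1 genes, the catalytic A subunit, which binds and hydrolyses ATP, has 3 paralogues in this genome: Vha68-1, Vha68-2 and Vha68-3. Vha68-2 (chromosome 2L, 12974322 to 12978607) had a peak at its low end in every sample, at percentiles 62.3, 81.5 and 41.9 in H1 RNAi samples A, B and C and 73.2, 79.4 and 67.8 in control samples A, B and C. Its covered locus length was 1065, 1187 and 746 bp in the H1 RNAi samples and 948, 1242 and 1146 bp in the control samples. The summit with the highest rank lay between 16 and 105 bp outside that end, and the groups overlapped in both measures. Vha68-1 (2L, starting at 13000770) had a gene-end peak in H1 RNAi samples A and B, at percentiles 20.1 and 27.9, and in control samples B and C, at 26.9 and 18.5. In H1 RNAi A and B and in control C the peak was at the high end. The peak at 26.9 in control B was at the low end, with its summit 8 bp from an end of Yip1d1. Control B also had a high-end peak, at percentile 24.3. The peaks of Vha68-1 covered 404, 603 and 0 bp in the H1 RNAi samples and 0, 834 and 608 bp in the control samples. In all 4 samples in which both were called, Vha68-1 ranked below Vha68-2. Its high end lies 373 bp from an end of mTor, which encodes the TORC1 kinase. Vha68-3 had no peak in any sample. Its low end is 179 bp from the high end of Vha68-2, and the Vha68-2 peak lies at the opposite end of Vha68-2.

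Vha55, the only gene for the B subunit, which shares the nucleotide sites of V1, held a peak at its high end (3R, 12623762 to 12627829) in every sample. Its percentile was 76.5, 83.9 and 66.4 in H1 RNAi samples A, B and C and 92.4, 88.6 and 78.5 in control samples A, B and C. It was the second Vha gene by the lowest rank over the 6 lists, after Vha16-1. The peaks covered 1586, 1578 and 385 bp in the H1 RNAi samples and 527, 2024 and 1699 bp in the control samples, so H1 RNAi C and control A were both narrow and the groups overlapped. An end of Snx3 lies 202 bp from that end of Vha55, and the summit was nearer to Snx3 in H1 RNAi B and control C.

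For the D subunit, part of the central shaft that turns with ATP hydrolysis, 3 paralogues were annotated. Vha36-1 had gene-end peaks in replicate B of both groups alone, at percentile 41.8 in H1 RNAi B and 47.7 in control B. Its peaks covered 628 bp in H1 RNAi B and 809 bp in control B, and their summits lay 1 to 22 bp from ends of the neighbours CG8187 and eIF2Bgamma. Vha36-2 had a gene-end peak in H1 RNAi A, at percentile 28.5, and in control B and C, at 46.5 and 22.6. Its locus held a peak in every H1 RNAi sample (582, 103 and 177 bp) and in control B and C (598 and 328 bp, with 0 bp in control A), with each summit nearest an end of Cam, the calmodulin gene. Vha36-3, on the X chromosome, had no peak. All D-subunit peaks were thus nearer to an end of another gene than to their own.

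The F subunit, which also sits on the shaft, is encoded by Vha14-1 and Vha14-2. Vha14-1 (2R, starting at 15679426) was the only Vha gene that differed by 2 samples: no H1 RNAi sample had a gene-end peak, and control B and C did. Those peaks covered 161 bp in control B and 282 bp in control C and were among the weakest of their lists, at percentiles 0.2 and 1.6. Control A had none, so the groups overlapped. Vha14-2 had no peak.

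The other V1 subunits have a single gene each, and every one had a gene-end peak in at least 4 samples. Vha26 (subunit E) and Vha13 (subunit G) form the outer stalks that hold V1 and Vo together and were called in all 6. Vha26 ranked low, at percentiles 13.5, 44.0 and 9.4 in the H1 RNAi samples and 5.2, 62.6 and 47.8 in the control samples. Vha13 stood at 46.0, 75.5 and 30.3 in the H1 RNAi samples and 72.7, 73.9 and 70.5 in the control samples. Vha44 (subunit C), which links the stalks and is released when V1 detaches, had a gene-end peak in 2 of 3 H1 RNAi and 3 of 3 control samples. VhaSFD (subunit H), which restrains ATP hydrolysis in detached V1, had one in 2 of 3 H1 RNAi and 2 of 3 control samples. In these 4 genes the groups overlapped in covered locus length.

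In the Vo domain, the a subunit forms the channels through which protons enter and leave, and it is also thought to direct the pump to particular membranes. Of its 5 paralogues, Vha100-1 and Vha100-2 were among the 3 Vha genes whose peaks covered less of the locus in every H1 RNAi sample than in every control sample. Vha100-2 (3R, 18390323 to 18399169), the epithelial isoform, was covered over 841, 839 and 874 bp in H1 RNAi samples A, B and C and 1269, 2357 and 2234 bp in control samples A, B and C. The H1 RNAi values lay close together and all fell below the lowest control. The means were 851 ± 19.7 bp in H1 RNAi and 1953 ± 596 bp in control samples (SD, n = 3 each), a difference of −1102 bp with an exact two-sided permutation p of 0.1 and an adjusted p of 1. The difference was −532 bp when peaks needed a −log10 q of 10 or more and −342 bp with a fold of at least 4, and the groups overlapped under both. In H1 RNAi B, 4 separate peaks stood where control B had a single peak of 2357 bp. The strongest of these peaks lie in the body of Vha100-2, within 500 bp of an end of the overlapping gene Vti1b. Its gene-end peaks stood at percentiles 70.8 and 77.4 in H1 RNAi B and C, with none in H1 RNAi A, and at 42.1, 88.4 and 66.0 in control samples A, B and C.

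Vha100-1 (3R, 29131193 to 29137980), known as the a subunit of neurons and synaptic vesicles, was covered over 242, 530 and 146 bp in the H1 RNAi samples and 591, 1005 and 1429 bp in the control samples. H1 RNAi B came closest to the controls and still lay below control A. The means were 306 ± 200 bp in H1 RNAi and 1008 ± 419 bp in control samples (SD, n = 3 each), a difference of −702 bp (exact two-sided permutation p = 0.1, adjusted p = 1). With a fold of at least 4 the direction turned, to 177 bp more in H1 RNAi, and with a −log10 q of at least 10 the difference was −550 bp and the groups overlapped. A low-end peak was called in H1 RNAi A and B, at percentiles 12 and 36.8, and in the 3 control samples. A second peak near the high end had its summit 599 to 606 bp beyond it, 6 to 13 bp from an end of Alg13, in H1 RNAi B and C and in every control. The best gene-end percentile was 27.1, 57.7 and 39.4 in control samples A, B and C. In H1 RNAi C the peak at the Alg13 end was 146 bp wide and fell outside the gene-end window of Vha100-1.

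The other a-subunit genes were almost without peaks. Vha100-4, which is known for its part in acid secretion by copper cells, had 1 gene-end peak, of 440 bp in control C at percentile 25.2, in the interval it shares with Vha100-2. Vha100-5 had 1 peak of 128 bp inside the gene in H1 RNAi C and none in the other samples. Vha100-3 had none. In the order of samples with a gene-end peak, Vha100-1 and Vha100-2 stood level at 5 of 6, above Vha100-4 at 1 and Vha100-3 and Vha100-5 at 0.

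**Figure D2:**
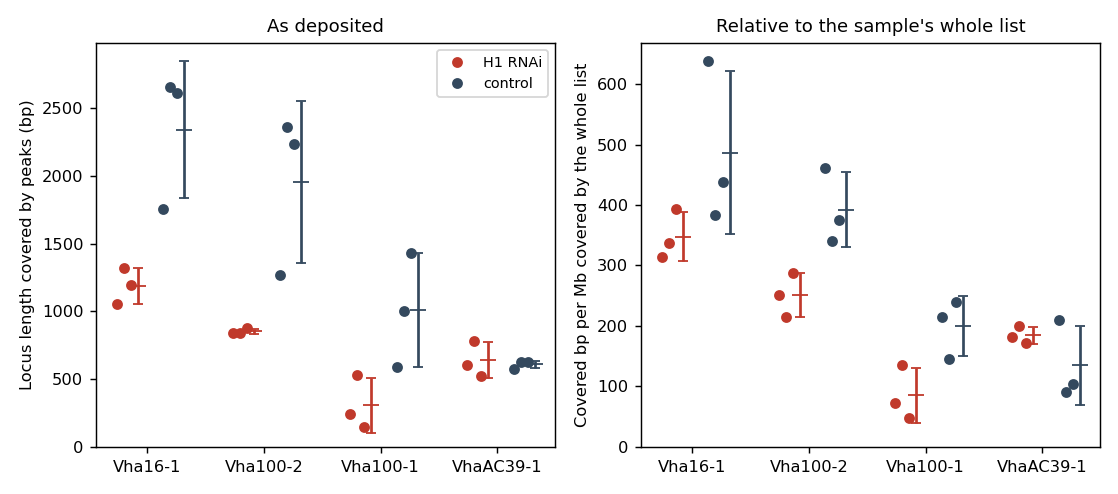
Length covered by peaks in the loci of Vha16-1, Vha100-2, Vha100-1 and, beside them, VhaAC39-1, in bp (left) and in bp per Mb covered by the sample's whole list (right), in each H1 RNAi and control sample, with mean and SD over 3 samples. In bp, every H1 RNAi point of Vha16-1, Vha100-2 and Vha100-1 lies below every control point, and per Mb this holds for Vha100-2 and Vha100-1.

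The c subunit is the proteolipid whose ring carries protons across the membrane. Vha16-1 (2R, 6625242 to 6633090), the broadly expressed copy, held the highest-ranked gene-end peaks of the family, at percentiles 96.5, 97.2 and 92.7 in H1 RNAi samples A, B and C and 78.4, 93.7 and 90.3 in control samples A, B and C. It is also the last of the 3 genes with non-overlapping covered lengths. Its peaks covered 1052, 1317 and 1194 bp in the H1 RNAi samples and 1756, 2652 and 2609 bp in the control samples, with every control above every H1 RNAi sample. The means were 1188 ± 133 bp in H1 RNAi and 2339 ± 505 bp in control samples (SD, n = 3 each), a difference of −1151 bp (exact two-sided permutation p = 0.1, adjusted p = 1). Every H1 RNAi sample and control A had 3 separate peaks there, with summits 3099 to 3139 bp, 6324 to 6338 bp and 7229 to 7261 bp from the low end. In control B and C the last 2 were joined into a single peak, of 2121 bp in control B and 2068 bp in control C. The peak at the high end reached the window by its edge. Its summit lay 585 to 619 bp inside the gene in all 6 samples, so a rule that asks for the summit within 500 bp finds no gene-end peak at Vha16-1 in any sample.

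**Figure D3:**
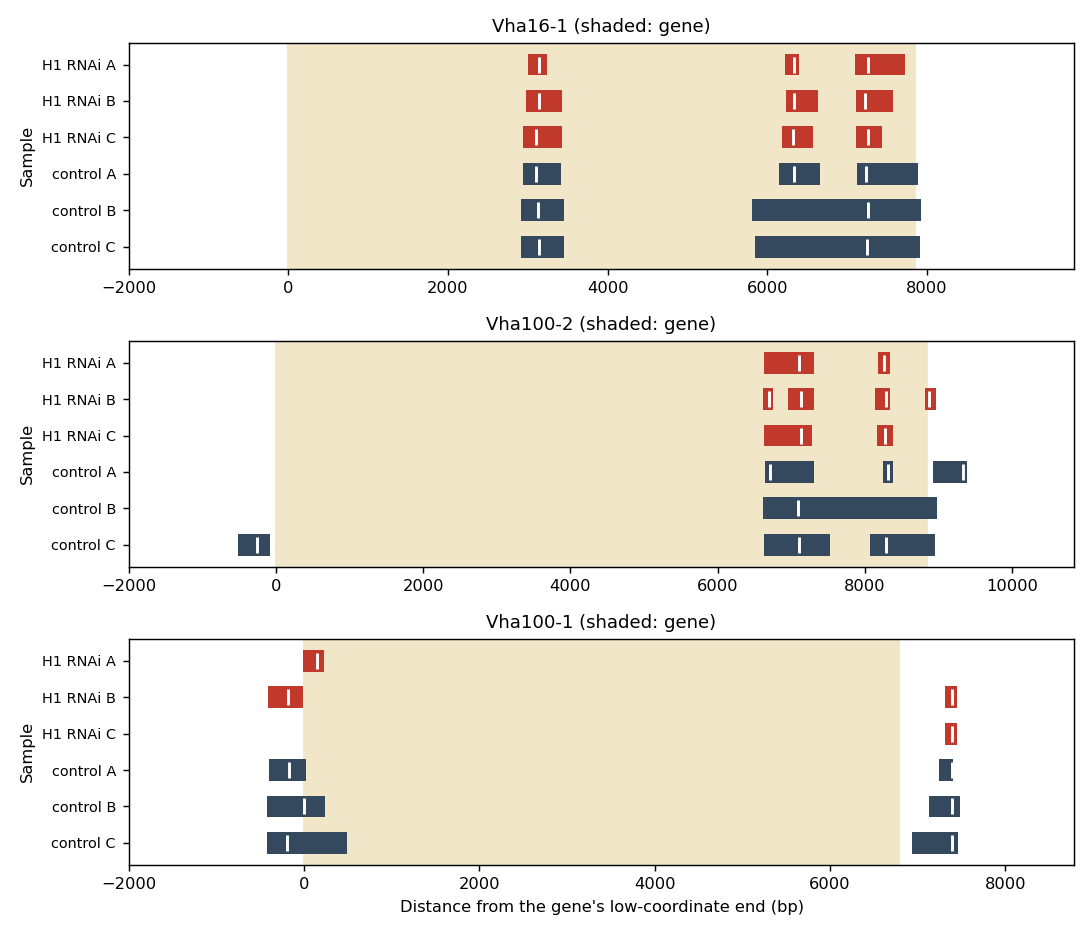
Peaks drawn to scale along the loci of Vha16-1, Vha100-2 and Vha100-1 in the 3 H1 RNAi samples (upper rows) and the 3 control samples (lower rows), in bp from the low end of the gene, with the gene shaded and summits in white. At Vha16-1 the 2 peaks nearest the high end are separate in each H1 RNAi sample and joined in control B and C.

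Of the other c-subunit genes, Vha16-2, Vha16-3 and Vha16-4 had no peak in any sample. Vha16-2 and Vha16-3 lie next to each other on chromosome 3L. Vha16-5 had a gene-end peak in replicate B of both groups, at percentile 2.2 in H1 RNAi B and 31.2 in control B. These were 2 different peaks, of 166 bp at the end beside Nup107 in H1 RNAi B and of 330 bp at the end beside CG12299 in control B. The c'' subunit, a further proteolipid of the ring, is encoded by 2 genes that lie on either side of RpS5b. VhaPPA1-1 (3R, starting at 14902330) had a high-end peak in every sample, at percentiles 20.1, 51.0 and 15.7 in H1 RNAi samples and 10.9, 54.6 and 50.1 in control samples, covering 339, 522 and 223 bp in H1 RNAi samples and 293, 644 and 405 bp in control samples. VhaPPA1-2 had no gene-end peak, and the peaks in its locus, of 245 and 406 bp in H1 RNAi A and B and of 239 and 254 bp in control B and C, had their summits nearest an end of Nup93-2.

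The d subunit couples the shaft to the ring, and VhaAC39 was the only family in which both paralogues were called in all 6 samples. VhaAC39-1 (X, starting at 3880748) stood at percentiles 60.6, 62.2 and 38.2 in H1 RNAi samples A, B and C and 27.9, 78.8 and 83.2 in control samples A, B and C. Its covered length was 607, 783 and 523 bp in the H1 RNAi samples and 576, 625 and 624 bp in the control samples, with the highest value in H1 RNAi B. VhaAC39-2 (3R, starting at 23158017) stood at 63.5, 63.8 and 59.2 in the H1 RNAi samples and 54.2, 80.5 and 72.1 in the control samples, and was the only 1 of the 19 genes outside the epithelial set with a gene-end peak in all 6. By its lowest percentile it came next after Vha16-1 and Vha55. Its covered length was 1114, 1041 and 660 bp in the H1 RNAi samples and 1055, 1281 and 1526 bp in the control samples, with H1 RNAi A above control A. Every summit of these peaks was nearest an end of unk, 155 bp from the low end of VhaAC39-2, and none was nearest to VhaAC39-2 itself.

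The e subunit is a small membrane protein at the edge of Vo, with 4 paralogues. VhaM9.7-b, the epithelial copy, had a low-end peak in H1 RNAi A and B, at percentiles 34.0 and 40.8, and in control samples A, B and C, at 23.6, 50.7 and 20.3, with every summit within 26 bp of the gene's own end. It was covered over 736, 439 and 0 bp in the H1 RNAi samples and 465, 1206 and 711 bp in the control samples. VhaM9.7-c had a gene-end peak in H1 RNAi C, at percentile 7.1, and in control B and C, at 36.5 and 4.6. Its locus was covered over 396, 390 and 189 bp in the H1 RNAi samples and 0, 470 and 236 bp in the control samples. The region from 4188094 to 4188498 on chromosome 3L, in the flank of VhaM9.7-c, was called in H1 RNAi A and B and in no control. Its summit lay 95 bp from an end of Teh2 in H1 RNAi A and 61 bp from an end of tipE in H1 RNAi B. These peaks stood at percentiles 7.8 in H1 RNAi A and 20.8 in H1 RNAi B. How many of all regions show this pattern was not counted. VhaM9.7-a and VhaM9.7-d had no peak.

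Of the accessory proteins, which assist assembly and sorting of the pump, VhaAC45 had a gene-end peak in 1 of 3 H1 RNAi samples (B, percentile 31.5) and 2 of 3 control samples (B and C, at 35.4 and 40.01). The summit was nearest VhaAC45 in H1 RNAi B, at 44 bp, and nearest Gnptab in control B and C, at 162 and 32 bp. Counted for the nearest gene end only, VhaAC45 had a peak in 1 of 3 H1 RNAi and 0 of 3 control samples. It was covered over 0, 638 and 0 bp in the H1 RNAi samples and 0, 695 and 652 bp in the control samples. VhaAC45RP had no peak. ATP6AP2, the accessory subunit also known as the prorenin receptor, had a gene-end peak in 1 of 3 H1 RNAi and 2 of 3 control samples.

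Counted per sample, 14, 17 and 10 Vha genes had a gene-end peak in H1 RNAi samples A, B and C and 12, 20 and 19 in control samples A, B and C. The order of the samples was close to that of all genes, of which 4919, 6415 and 4225 had one in the H1 RNAi samples and 4047, 7447 and 6382 in the control samples. The means were 13.7 ± 3.51 genes in H1 RNAi and 17 ± 4.36 in control samples (SD, n = 3 each), a difference of −3.33 genes, which is smaller than either spread. As shares they were 41.4 ± 10.6% in H1 RNAi and 51.5 ± 13.2% in control samples, against 37.2 ± 8.03% in H1 RNAi and 42.7 ± 12.5% in control samples over all genes. In the wider locus the means were 17.3 ± 2.52 Vha genes in H1 RNAi and 18 ± 4.36 in control samples (n = 3 each), a difference of −0.667. Neither difference was stable: with a minimum fold of 4 the gene-end difference turned to 0.667 and the locus difference to 1. The gene-end difference was −1.50 without H1 RNAi C, −1.83 without control B and −5.83 without control A. The locus difference was 0.500 without H1 RNAi C, 0.833 without control B, 0.333 without control C, −2 without H1 RNAi B and −3.17 without control A.

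**Figure D4:**
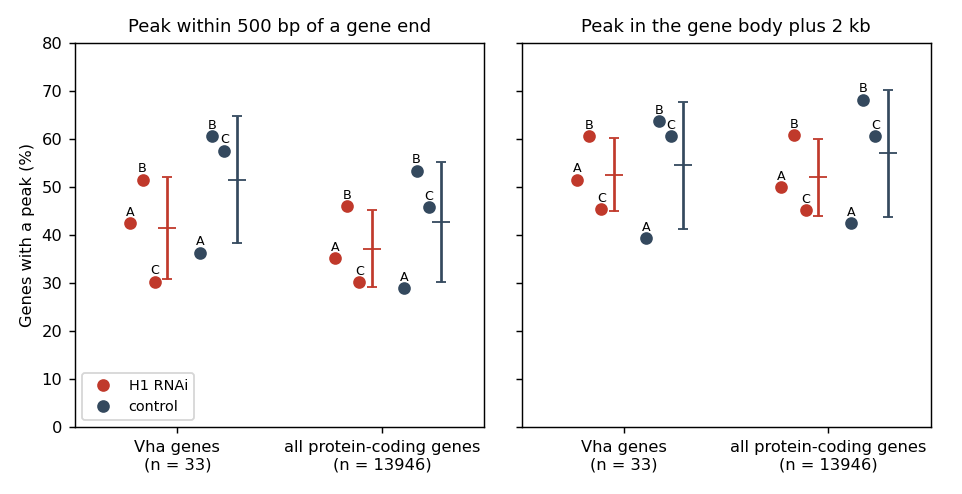
Percent of genes with a gene-end peak (left) and with a peak in the gene body plus 2 kb (right) in each H1 RNAi and control sample, for the 33 Vha genes and all 13946 protein-coding genes, with mean and SD over 3 samples. The Vha gene-end values run from 30.3% to 51.5% in H1 RNAi samples and from 36.4% to 60.6% in control samples, and the groups overlap.

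No Vha gene had a gene-end peak in every H1 RNAi sample and no control, which 0.0359% of all genes had, and none had the reverse, which 0.222% had. Relative to the controls, no Vha gene had a gene-end peak in more H1 RNAi samples, 1 (Vha14-1) had it in 2 fewer, 8 had it in 1 fewer and 24 had it in the same number. Of all genes, 6.21% had it in more H1 RNAi samples, 15.5% in 1 fewer, 3.81% in 2 or 3 fewer and 74.5% in the same number, so fewer H1 RNAi samples was also the commoner direction over all genes, and no test of the Vha genes against them was made. Among the 13 genes with 1 to 5 positive samples, 4 were equal between the groups. No Vha gene had more locus peaks in every H1 RNAi sample than in every control (0.301% of all genes) and none had fewer (0.387%). None had a longer covered locus in every H1 RNAi sample (0.0860% of all genes), and 3 had a shorter one (3.97%). With 3 samples a group the smallest exact two-sided permutation p is 0.1, so no gene could pass 0.05, and every adjusted p over 13946 genes was 1.

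The 3 genes with a shorter covered locus were among 12 Vha genes with a locus peak in all 6 samples, which is 25% of them, against 8.78% of the 5013 genes with a locus peak in all 6. The whole lists also covered fewer Mb in every H1 RNAi sample (3.35, 3.91 and 3.04) than in control B and C (6.92 and 5.96), though more than in control A (2.75). Among genes with a locus peak, 19 of 23 Vha genes and 9017 of 9928 genes had a lower mean covered length in H1 RNAi, with median differences of −148 bp and −197 bp. Scaled to the covered length of each list, Vha100-1 and Vha100-2 still had shorter values in every H1 RNAi sample (2.65% of all genes) and no Vha gene had longer ones (3.34%). Vha100-2 then had 251, 215 and 287 bp per Mb of list in the H1 RNAi samples and 461, 341 and 375 in the control samples. Vha100-1 had 72.2, 136 and 48.0 bp per Mb in the H1 RNAi samples and 215, 145 and 240 in the control samples. Vha16-1 overlapped on this scale, with 314, 337 and 393 bp per Mb in the H1 RNAi samples and 639, 383 and 438 in the control samples. With every peak set to 100 bp on either side of its summit, none of the 3 had a shorter covered length in every H1 RNAi sample (0.452% of all genes did, and 0.559% had a longer one). The direction of the means turned for 2 of them: Vha16-1 had 603 bp in H1 RNAi and 469 bp in control samples, and Vha100-2 had 536 bp in H1 RNAi and 469 bp in control samples. Vha100-1 had 268 bp in H1 RNAi and 402 bp in control samples. With fixed widths the value follows the number of separate peaks, so peaks that are joined into 1 lower it. At Vha16-1 it was 603 bp in every H1 RNAi sample and in control A, and 402 bp in control B and C, where peaks were joined. The differences thus depended on how covered length was measured, and what peak width contributes to them was not tested. Without control A, 12 Vha genes and 44.4% of all genes had a shorter covered locus in every H1 RNAi sample, and without H1 RNAi A, 5 Vha genes and 6.22% of all genes did.

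Peaks of the 6 samples merged into 35 regions in the Vha loci, of which 21, 28 and 17 were called in H1 RNAi samples A, B and C and 15, 30 and 26 in control samples A, B and C. Of these regions 11 (31.4%) were called in all 6 samples, against 37.8% of 10597 regions in all protein-coding loci. None was called in every H1 RNAi sample and no control (0.151% of all such regions) and none in the reverse (0.566%). A neighbouring gene end lay within 500 bp, or another gene overlapped, at 26 of the 33 Vha genes. Of the 111 gene-end peaks counted over the 6 samples, 75 (67.6%) had their summit nearest the end of the Vha gene itself. When a peak counted only for the gene with the nearest end, 5 Vha genes were called in all 6 samples, 11 in some and 17 in none. In that count Vha36-1, Vha36-2, Vha16-5, VhaAC39-2 and Vha100-4 had no gene-end peak.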

How the data were processed

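ATAC-seq peak lists of 6 samples, 3 H1 RNAi and 3 control, were grouped by their titles. Per the submitters' processing notes, the tools were MACS2, Picard, Bowtie2 and Trim Galore, and the build was dm6. Which versions and settings were used, and whether reads were shifted for Tn5, is not given in the sources used here. For each sample the authors deposited a separate list, with no pooling of replicates. In these deposited lists a peak has coordinates with a summit (other units), a whole-number score, a fold enrichment that is a ratio to background, and p- and q-values written as −log10, all from the authors' peak caller. These ranked or filtered peaks within a list; heights were not compared between samples. Read totals were not used here. The background per base was solved from the fold and p-value of each peak, and 99.97 to 100% of peaks gave a whole number of fragments within 0.02. Its level scales with depth and with fragment extension. No list held columns of other samples.

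Genes came from the NCBI table of the dm6 assembly, which gives no strand or sequence, so both ends were used, 1 bp of overlap counted, and promoter motifs, protein comparisons and an alternative with the start alone were not run. The members, the gene lists and the tests were chosen with earlier results of these data known; the set of epithelial genes and 2 alternatives (covered length per Mb of list, peaks of fixed width) were added after the files had been opened. Values in every sample were given for families with paralogues, for genes whose groups did not overlap, for genes differing by 2 or more samples, and for the 3 highest by their lowest percentile. The single V1 genes Vha26 and Vha13 were given per sample after their values were seen. Genes of other lists were named by the rule when called in 0 samples or when the groups differed by 2 or more. Samples were compared by exact two-sided permutation with Benjamini-Hochberg adjustment over 13946 genes. Replicates are separate pools of guts per the labels. Alternatives set a minimum −log10 q of 10 or a minimum fold of 4, kept the 6142 top peaks of each list, or used the summit in the window, windows of 250 and 1000 bp, flanks of 1 and 5 kb, the nearest gene end, the replicate letter as a block, regions from summits within 150 bp, and leaving out each sample. The counting code was tested on the deposited lists with peaks added. Each added peak was placed at a gene without other peaks in its locus, in every sample of 1 group alone. Over 13946 genes, 200 of 200 such gene-end differences between H1 RNAi and control were recovered. This checks the counting alone and does not measure the power to find differences among real peaks. Analyses used Python 3.11.15, numpy 2.4.6, pandas 2.3.3, scipy 1.17.1 and matplotlib 3.10.9.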

Additional observations from a re-analysis of the deposited data

How the results depend on the processing

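With 3 samples a group the design cannot show a difference at 0.05 for a single gene, peaks below each list's own threshold are unseen, and background and peak width differ between the libraries. The cause of the changes below was not tested. A minimum fold of 4 turned the difference in Vha genes with a gene-end peak to 0.667 and left 1 gene with a shorter covered locus in every H1 RNAi sample, Vha16-1 (1.89% of all genes). A −log10 q of at least 10 also left 1, Vha16-1 (2.21%), and peaks of fixed width left 0 (0.452%). Vha16-1, Vha100-2 and Vha100-1 all remained with lists of equal length (5.39%), the summit in the window (3.82%) and flanks of 5 kb (4.50%). Flanks of 1 kb kept them and added VhaAC39-2 (3.71%). With the minimum fold, the covered length of Vha100-1 was 177 bp longer in H1 RNAi than in control samples. Leaving out each sample in turn, the count with a shorter covered locus ran from 3 to 12. The share of all genes ran from 4.05% without control B to 44.4% without control A, the setting that gave 12. The counts with a gene-end peak in controls alone, with more or fewer locus peaks in every H1 RNAi sample, and of regions called in 1 group alone each ran from 0 to 1. For these counts the shares over all genes and regions were not computed with a sample left out. The gene-end difference ran from −5.83 to −1.50 and the locus difference from −3.17 to 0.833; with lists of equal length they were −1.67 and 0.333. For the 21 Vha genes with a gene-end peak, 252 group differences under the alternatives kept within the replicate spread and 21 moved further. Covered length was recomputed for 19 genes with a locus peak and not for Vha26, Vha13, Vha44 and VhaSFD. Of its group differences, 214 kept within the spread, 13 moved further and 1, that of Vha100-1 with the minimum fold, was counted as turned. Some differences counted as kept or moved also changed sign. With the minimum fold these included Vha68-1, Vha36-1 and VhaPPA1-1, counted as kept, and VhaM9.7-b, counted as moved. With the minimum −log10 q VhaM9.7-c, counted as moved, changed sign. The counts of kept and moved differences follow the difference alone, so a gene lost in both groups counts as kept, as Vha16-1 did with the summit in the window. Vha genes called in all 6 samples numbered 8 in the main count, 2 under the minimum −log10 q and 3 under the minimum fold. Requiring the summit in the window or the nearest gene end left 5, and lists of equal length left 7. Windows of 250 and 1000 bp gave 6 and 10. With the replicate letter as a block, the differences were −3.33 and −0.667, and Vha16-1, Vha100-2 and Vha100-1 were shorter in every letter (p = 0.25, the smallest exact p it allows; 13.3% of all genes were shorter so). Same-letter samples had deviations correlated at 0.0716, 0.361 and −0.200, so they were not treated as pairs, although B with B was the highest of the 9 letter pairs; no source used here says whether a letter marks a shared batch. The start-alone alternative was not run.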

Other observations

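Genes that work with the pump were counted the same way, with no test. Over all genes the shares with a gene-end peak were 37.2 ± 8.03% in H1 RNAi and 42.7 ± 12.5% in control samples, and 3.81% of all genes had one in 2 or 3 fewer H1 RNAi than control samples. Of 20 genes for V-ATPase assembly, lysosomal function and TORC1 at the lysosome, 13, 16 and 9 had a gene-end peak in H1 RNAi samples A, B and C and 9, 18 and 16 in control samples A, B and C, or 63.3 ± 17.6% in H1 RNAi and 71.7 ± 23.6% in control samples (SD, n = 3 each). In this list 7 genes were called in all 6 samples and 1 in none, Trpml, the lysosomal calcium channel. Lamtor2, a part of the complex that anchors TORC1 signalling to the lysosome, had a gene-end peak in 0 of 3 H1 RNAi and 2 of 3 control samples. It had a locus peak in 3 of 3 H1 RNAi and 2 of 3 control samples.

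Of 14 genes for acid and ion transport, 4, 4 and 3 had a gene-end peak in H1 RNAi samples and 3, 8 and 6 in control samples. Of these, 3 were called in all 6, and CAH2, Nha1, Nhe2, Irk1, Irk3 and nrv2 in none. ClC-a, a chloride channel, and Irk2, an inward-rectifier potassium channel, each had one in 0 of 3 H1 RNAi and 2 of 3 control samples. In the wider locus, 11, 10 and 9 of the 14 genes had a peak in H1 RNAi samples A, B and C and 9, 14 and 14 in control samples A, B and C. Nha1, Nhe2, Irk1 and nrv2 had a locus peak in all 6 samples. The F-type ATP synthase of mitochondria, a rotary enzyme related to the V-ATPase, had 9, 8 and 7 of its 14 listed genes with a gene-end peak in H1 RNAi samples and 9, 12 and 9 in control samples. Of these, 7 were called in all 6 samples and ATPsyndelta and ATPsynepsilonL in none, and ATPsynCF6 was called in 1 of 3 H1 RNAi and 3 of 3 control samples. ATPsyndelta had a locus peak in all 6 samples.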
